A study of Mus musculus with 15 samples.

Results

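The 10 genes examined here encode endothelial transcription factors, and all 10 symbols were found among the 44674 genes of the count table, each in 1 row. Sox7, Sox17 and Sox18 form the SoxF group, Erg, Fli1, Ets1, Ets2 and Elk3 belong to the ETS family, and Tal1 and Lyl1 are basic helix-loop-helix factors. They were chosen by symbol, and their levels were compared over 15 bulk RNA-seq libraries in 8 conditions. All libraries carry the genotype label WT. According to the study's methods, the endothelial cells came from adult mice carrying Tie2-CreERT2 and a Rosa26-tdTomato reporter and given tamoxifen, so the tdTomato mark depends on the Tek (Tie2) promoter. Bone marrow endothelial cells (BMECs) were sorted as CD45− tdT+ cells from whole bone marrow cultures and split by endomucin (Emcn), a surface sialomucin. P0 Emcn+ BMECs, P0 Emcn− BMECs and lung cells (sorted as Emcn− by the study's results) were taken from primary cultures. P1, P2, P3 and P4 Emcn− BMECs came from serial passages, and MSC from an Osx-Cre;Rosa26-tdTomato culture in another medium. P4 had 1 library and every other condition had 2, so no spread can be given for P4.

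SoxF factors bind DNA through a high mobility group box and act together in the specification of arteries, veins and lymphatic vessels. ETS factors bind a GGAA core that is found in the enhancers of most endothelial genes, and Erg and Fli1 are known for maintaining endothelial identity in adult vessels. Tal1 and Lyl1 are closely related factors of blood and endothelial progenitors that work in complexes with E proteins, Lmo2 and GATA factors.

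Total counts ran from 9914620 in P0 Emcn− replicate 2 to 39718807 in P0 Emcn− replicate 1, so 3 counts, the upper limit used where a library had none, corresponded to 0.0755 to 0.303 CPM (counts scaled to the same total in each library). Such limits and the counting intervals below cover counting error only. The labels give 4 batches. P0 and lung libraries with the same replicate number share a batch, as do passaged libraries with the same number, and both MSC libraries share the batch of passaged replicate 2. The P0 and lung batches hold none of the passaged or MSC libraries. Between those groups the condition therefore cannot be told apart from the batch. The labelled cell types were set against 12 endothelial markers. These include Emcn, the gene of the sort antigen, and Tek, so their sum is not independent of the sort. Emcn RNA stood at 631 and 798 CPM in P0 Emcn+ replicates 1 and 2. It was at 12.7 and 2.52 CPM in P0 Emcn− and at 32.6 and 124.6 CPM in lung. Cdh5, the VE-cadherin gene, stood at 6222 and 5118 CPM in P0 Emcn+ replicates 1 and 2 but at 119.5 and 6.35 CPM in P0 Emcn−, at 39.5 and 171 CPM in lung, at 7.86 and 156 CPM in MSC and at 0.0564 to 2.33 CPM in the 7 passaged libraries. The 12 markers summed to 11610 to 13550 CPM in P0 Emcn+ and to 39.2 to 729.6 CPM in every other library, none of them at 0 in a P0, lung or MSC library. The 10 fibroblast markers summed to 277 to 355 CPM in P0 Emcn+ and to 6117 to 25150 CPM elsewhere. The levels of endothelial markers in the libraries labelled as Emcn− BMECs were therefore far from those of P0 Emcn+, and these libraries are called by their labels throughout. In bulk samples, fewer cells of a type and less RNA per cell cannot be told apart.

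Promoter windows, from 250 bases before to 50 bases after a transcription start, were matched in a RefSeq table of GRCm38.p6 for 5 of the 10 genes, with 8 windows in all. They were searched on both strands, because the members belong to families, or work with partners, that bind such letters. The letters AGGAAG were taken as an ETS motif. For SOX factors the motif was ACAAT and for GATA factors it was AGATAA. The E-box was searched as CANNTG and can overlap the others. The 4 windows that held at least 1 match are printed 5′ to 3′ on the strand of the gene, with ETS, SOX and GATA matches in capitals and E-boxes left in lower case.
Erg, chr16:95459299-95459598, minus strand: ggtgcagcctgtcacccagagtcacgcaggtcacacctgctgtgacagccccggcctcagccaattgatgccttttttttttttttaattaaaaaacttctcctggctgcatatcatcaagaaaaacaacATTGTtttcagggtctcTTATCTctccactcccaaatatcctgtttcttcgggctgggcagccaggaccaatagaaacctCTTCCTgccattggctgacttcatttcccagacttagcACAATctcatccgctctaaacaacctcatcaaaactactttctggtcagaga
Elk3, chr10:93311110-93311409, minus strand: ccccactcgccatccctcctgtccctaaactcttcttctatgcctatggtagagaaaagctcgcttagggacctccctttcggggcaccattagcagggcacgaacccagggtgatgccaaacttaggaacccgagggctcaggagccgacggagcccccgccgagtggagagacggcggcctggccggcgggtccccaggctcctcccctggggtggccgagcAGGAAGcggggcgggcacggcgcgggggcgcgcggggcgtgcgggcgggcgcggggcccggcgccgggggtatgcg
Tal1, chr4:115056176-115056475, plus strand: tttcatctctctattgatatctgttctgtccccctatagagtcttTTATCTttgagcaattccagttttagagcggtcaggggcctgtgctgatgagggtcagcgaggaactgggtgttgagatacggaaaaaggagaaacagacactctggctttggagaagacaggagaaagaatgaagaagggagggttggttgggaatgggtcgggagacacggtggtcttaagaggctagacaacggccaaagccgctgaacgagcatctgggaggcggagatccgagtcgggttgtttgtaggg
Lyl1, chr8:84701207-84701506, plus strand: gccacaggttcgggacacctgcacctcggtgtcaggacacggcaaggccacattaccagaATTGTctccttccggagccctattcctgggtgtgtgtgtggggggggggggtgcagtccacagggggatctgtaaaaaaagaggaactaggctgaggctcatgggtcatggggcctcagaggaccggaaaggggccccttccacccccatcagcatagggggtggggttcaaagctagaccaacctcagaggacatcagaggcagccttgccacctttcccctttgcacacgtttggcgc
The Erg window, the most internal of its 3 annotated starts, held 1 ETS, 2 SOX and 1 GATA match and 2 E-boxes. Elk3 held 1 ETS match, Tal1 at its upstream start held 1 GATA match and 1 E-box, and Lyl1 held 1 SOX match and 1 E-box. The windows at the other 2 Erg starts, at the other Tal1 start and at the Ets2 start held none of these letters. Over all 32817 windows of the table, 35.4% held the ETS motif, 31.0% the SOX motif, 11.2% the GATA motif and 72.3% the E-box, whereas 2 of the members' 8 windows held ETS, 2 SOX and 2 GATA letters and 3 (37.5%) an E-box. A match describes the letters of these windows and shows no binding. The GC content differed widely, from 37.3% at an Erg start to 71.3% at Elk3 and 71.7% at Ets2, with a median of 52.67% over all windows.

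**Figure D1:**
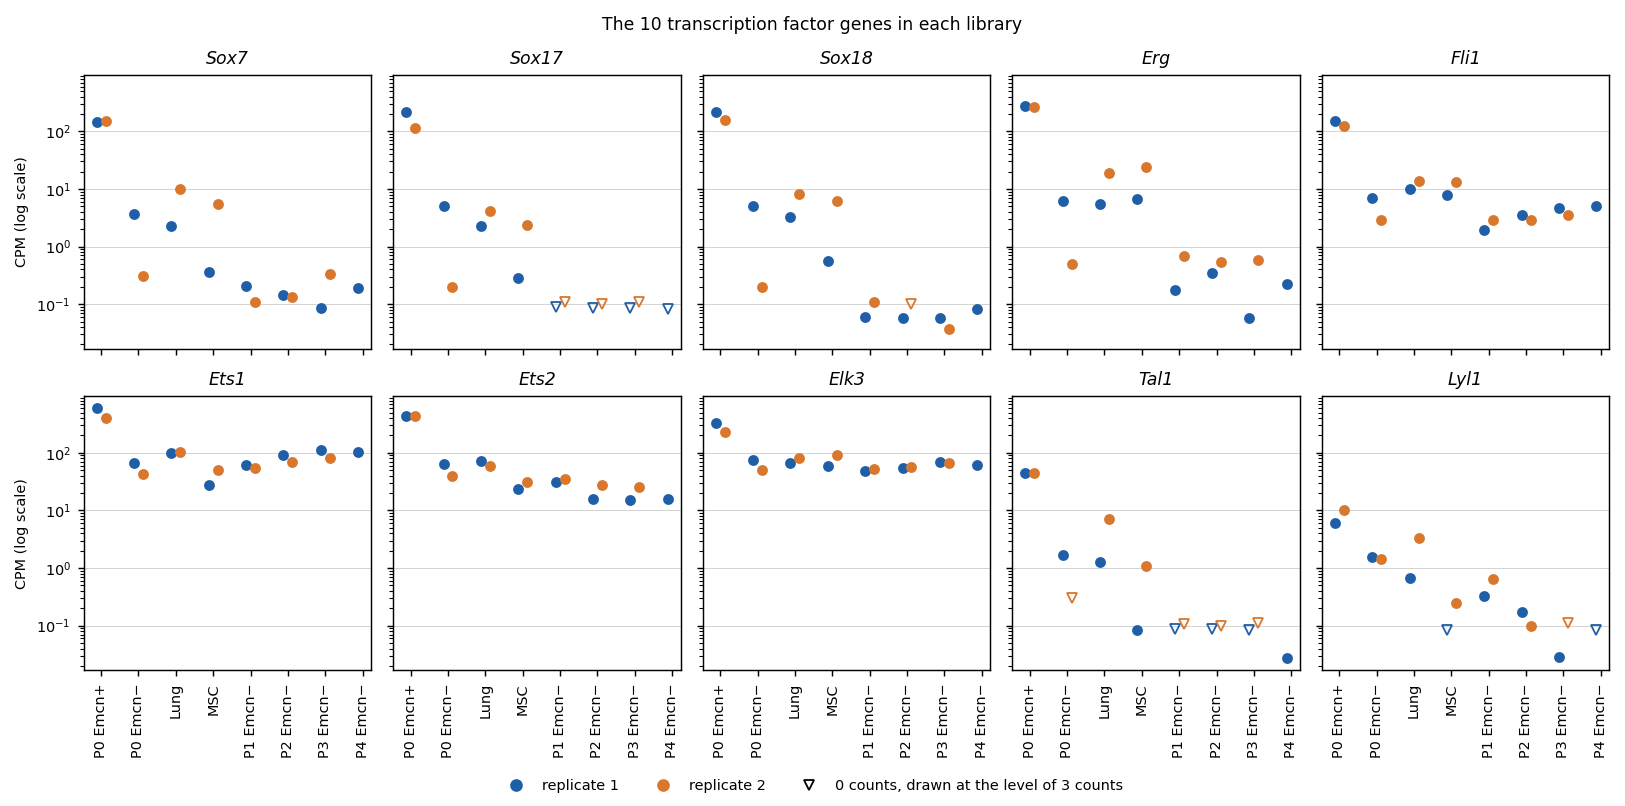
CPM (log scale) of the 10 genes in each library, with conditions on the horizontal axis, replicate 1 in blue and replicate 2 in orange. Open triangles mark libraries with 0 counts, drawn at the level of 3 counts. P0 Emcn+ lies above all other libraries for every gene, and Sox17 has 0 counts in all 7 passaged libraries.

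All 3 SoxF genes rose in P0 Emcn+ BMECs over the P0 Emcn− BMECs. Sox18 (ENSMUSG00000046470, chromosome 2, 181669836 to 181671640, minus strand) had 217 and 157.5 CPM in replicates 1 and 2 of P0 Emcn+, against 5.06 and 0.202 CPM in P0 Emcn−. Sox7 (ENSMUSG00000063060, chromosome 14, 63943673 to 63950732, plus strand) was at 143 and 149.8 CPM against 3.63 and 0.303 CPM. Sox17 (ENSMUSG00000025902, chromosome 1, 4490931 to 4497354, minus strand), an arterial factor, was at 213.5 and 112.5 CPM against 4.99 and 0.202 CPM. For all 3 genes the groups did not overlap, and, as a ratio between replicates, the 2 P0 Emcn− libraries lay further apart than the 2 P0 Emcn+ libraries. How often groups of 2 libraries do not overlap over all genes was not counted, here or below. Sox7 averaged 146 ± 4.98 CPM (SD, n = 2) in the Emcn+ and 1.96 ± 2.35 CPM (SD, n = 2) in the Emcn− libraries of P0. By the quasi-likelihood test of edgeR, with p adjusted by Benjamini-Hochberg over all genes tested, the log2 fold change of P0 Emcn+ over P0 Emcn− was 5.98 (SE 1.16, adjusted p = 0.00275) for Sox18, 6.04 (SE 1.23, adjusted p = 0.00366) for Sox7 and 5.81 (SE 1.23, adjusted p = 0.00974) for Sox17. P0 Emcn− replicate 2 held only 2 to 3 counts of each SoxF gene. Within the batch of replicate 1 the CPM ratios were 42.9 for Sox18, 39.4 for Sox7 and 42.8 for Sox17. Against P0 Emcn− replicate 2 alone, the pooled P0 Emcn+ level was 943-fold higher for Sox18 (95% counting interval 261 to 7788) and 482-fold higher for Sox7 (165 to 2340), so the size of these differences depended on the library used.

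Among the ETS genes, those known as endothelial identity factors stood apart at P0 from those that are expressed widely. Erg (ENSMUSG00000040732, chromosome 16, 95359169 to 95586593, minus strand) had 270.4 and 259 CPM in replicates 1 and 2 of P0 Emcn+, against 6.17 and 0.504 CPM in P0 Emcn−. Fli1 (ENSMUSG00000016087, chromosome 9, 32422204 to 32542861, minus strand), the closest relative of Erg, was at 149.7 and 123 CPM against 7.02 and 2.93 CPM. Both rose in P0 Emcn+ over P0 Emcn−, by a log2 fold change of 6.16 (SE 1.09, edgeR adjusted p = 0.00158) for Erg and 4.75 (SE 0.44, adjusted p = 2.84e-05) for Fli1. Ets1 (ENSMUSG00000032035, chromosome 9, 32636221 to 32757820, plus strand), which lies next to Fli1 and is known for its part in angiogenesis, was at 588 and 396 CPM in P0 Emcn+ against 66.8 and 43.4 CPM. Ets2 (ENSMUSG00000022895, chromosome 16, 95702075 to 95721051, plus strand) was at 435 and 444 CPM against 65.2 and 39.8 CPM. Elk3 (ENSMUSG00000008398, chromosome 10, 93247414 to 93311135, minus strand), a ternary complex factor that acts with serum response factor, was at 332 and 233.5 CPM against 76.1 and 49.6 CPM. The log2 fold changes of these 3 genes were 3.19 (SE 0.35, edgeR adjusted p = 8.68e-05) for Ets1, 3.09 (SE 0.32, adjusted p = 6.48e-05) for Ets2 and 2.20 (SE 0.26, adjusted p = 0.000139) for Elk3. Their P0 Emcn− libraries still held 8.82% to 26.9% of the P0 Emcn+ mean, where Erg held 2.33% and 0.19% and Fli1 5.16% and 2.15%. The Elk3 exons share 316 bases with Cdk17 on the opposite strand, and the use of strand in the counting is not stated, so part of its counts is uncertain. Cdk17 itself had 112 and 100.2 CPM in P0 Emcn+ against 18.8 and 17.4 CPM in P0 Emcn−.

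The blood and endothelial factors were lower in level. Tal1 (ENSMUSG00000028717, chromosome 4, 115056426 to 115071755, plus strand) was at 45.1 and 44.7 CPM in P0 Emcn+ replicates 1 and 2, at 1.66 CPM in P0 Emcn− replicate 1 and at 0 counts in replicate 2. It rose by a log2 fold change of 5.49 (SE 1.41, edgeR adjusted p = 0.0217), but DESeq2's Wald test did not call it (adjusted p = 0.0679), nor did edgeR without P0 Emcn− replicate 2 (0.0616) or without P0 Emcn+ replicate 1 (0.0649) or 2 (0.0615). Against P0 Emcn− replicate 2 the pooled P0 Emcn+ level of Tal1 was at least 149-fold higher, taking 3 counts in that library as the limit. Lyl1 (ENSMUSG00000034041, chromosome 8, 84701457 to 84704715, plus strand) had 6.12 and 10.3 CPM in P0 Emcn+ against 1.59 and 1.41 CPM in P0 Emcn−. The groups did not overlap, but the difference missed the threshold (log2 fold change 2.47, SE 0.90, edgeR adjusted p = 0.0577), while DESeq2 called it (log2 fold change 2.51, adjusted p = 0.0349). The 12 macrophage and leukocyte markers, which mark cells that also use Lyl1, summed to 831 and 776 CPM in P0 Emcn+, with 268.5 and 323 CPM in P0 Emcn−. Of these markers, Cd14, Cd68, Fcer1g and Laptm5 (4 of 12) rose, against 7.79% of all genes called higher. The others had positive log2 fold changes that were not called, and none of the 12 was at 0 in a P0 library. Their part in the Tal1 and Lyl1 values was not tested.

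In total, P0 Emcn+ over P0 Emcn− called 9 of the 10 genes higher and none lower, where a call is an adjusted p under 0.05 with an absolute log2 fold change above 1.5. Of the 19401 genes tested, 7.79% were called higher and 11.4% lower. The median log2 fold change was 5.12 over the 10 genes and -0.06 over all genes tested. The unadjusted p was under 0.05 for all 10, by edgeR and by DESeq2. The share of all genes with an unadjusted p under 0.05 was not counted, in this or any other comparison.

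**Figure D2:**
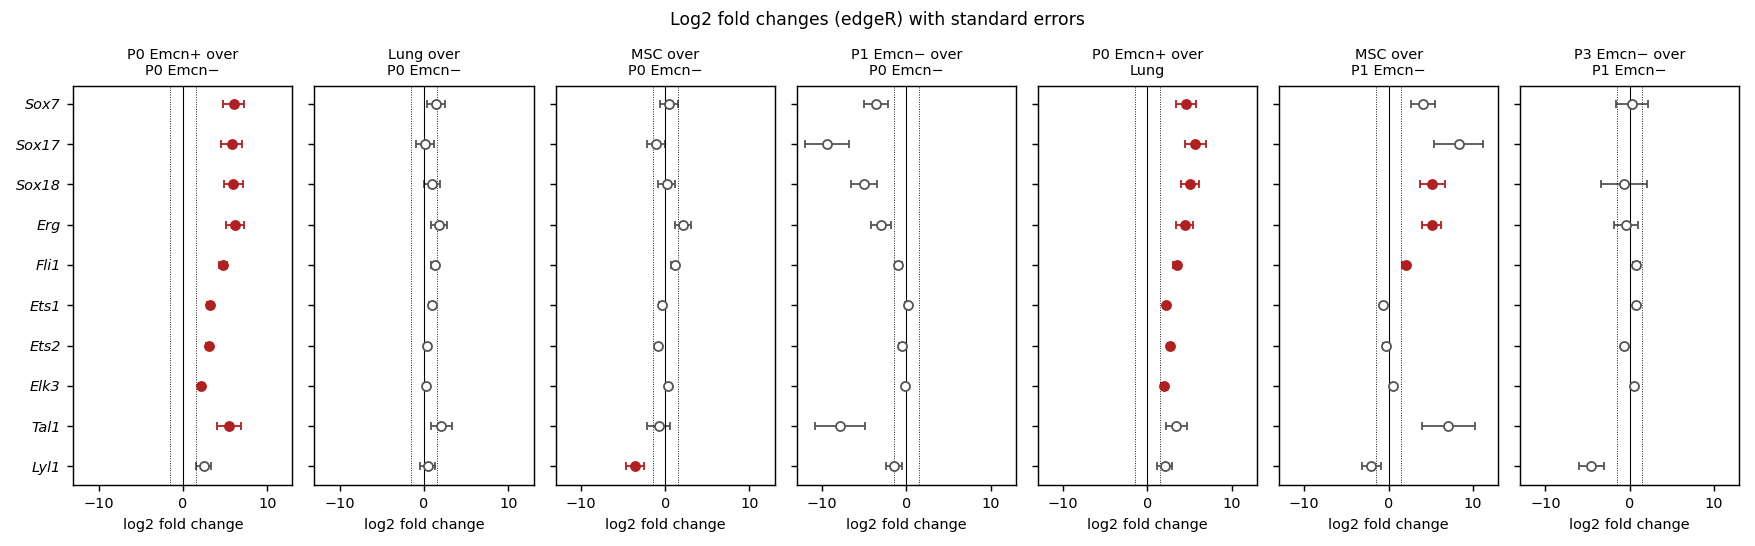
Log2 fold changes of the 10 genes from edgeR in the 7 comparisons, with bars for the standard error and dotted lines at 1.5 and -1.5. Filled red points are called and open points are not. Called points are in P0 Emcn+ over P0 Emcn− (9), P0 Emcn+ over lung (8), MSC over P1 Emcn− (3, higher) and MSC over P0 Emcn− (1, Lyl1, lower), while Sox17 and Tal1, at 0 counts in both groups, are not drawn for P3 over P1.

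Within P0 Emcn+ the genes were ordered by level per kilobase of exon length in the GENCODE M21 annotation. The mean was highest for Sox18 (116 CPM per kb), followed by Erg (76.4), Ets2 (76.0), Elk3 (62.2), Ets1 (58.0), Sox7 (44.4), Fli1 (39.1), Sox17 (34.2), Tal1 (10.3) and Lyl1 (4.55). Of the summed CPM per kb of the 3 SoxF genes, Sox18 took 60.4% and 58.5% in P0 Emcn+ replicates 1 and 2, and Sox7 and Sox17 shared the rest. In the other libraries with more than 40 SoxF counts, the Sox18 share stayed between 56.2% and 67.2%, while the Sox17 share ran from 20.2% in P0 Emcn+ replicate 1 to 8.46% in MSC replicate 2. The shares of the ETS genes followed another pattern, which was not tested. Erg made up 23.1% and 26.3% of the summed CPM per kb of the 5 ETS genes in P0 Emcn+, and 4.49% and 0.609% in P0 Emcn−. Elk3 made up 21.6% and 18.0% in P0 Emcn+ and 42.1% and 45.6% in P0 Emcn−.

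**Figure D3:**
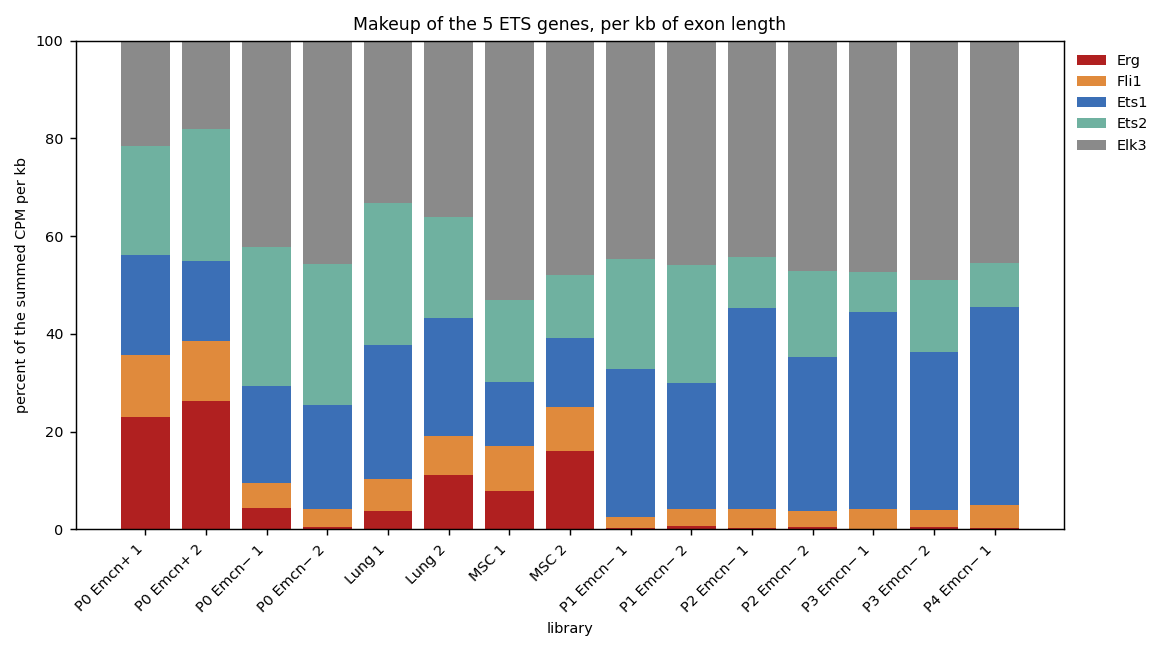
Share (percent) of Erg, Fli1, Ets1, Ets2 and Elk3 in their summed CPM per kb of exon length, with 1 stacked bar per library. Erg takes 23.1% and 26.3% in P0 Emcn+, 7.90% and 16.2% in MSC and under 1% in the passaged libraries, where Elk3 and Ets1 take the largest shares.

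P0 Emcn+ BMECs were also compared with lung cells, and 8 of the 10 genes were called higher and none lower, against 8.48% and 12.6% of all genes tested. The median log2 fold change was 3.46 over the members and -0.06 over all genes. The SoxF genes and Erg were again the genes with the largest values among the called members. Sox17 was at 2.29 and 4.10 CPM in lung replicates 1 and 2 (log2 fold change 5.66, SE 1.22, edgeR adjusted p = 0.00978). Sox18 was at 3.26 and 8.12 CPM in lung (5.03, SE 1.10, adjusted p = 0.00504), Sox7 at 2.29 and 10.1 CPM (4.56, SE 1.13, adjusted p = 0.00985) and Erg at 5.58 and 19.3 CPM (4.40, SE 0.99, adjusted p = 0.00586). Fli1 (3.49), Ets2 (2.70), Ets1 (2.25) and Elk3 (1.91) followed on the log2 scale. Tal1 (1.27 and 7.05 CPM in lung, log2 fold change 3.43, adjusted p = 0.0713) and Lyl1 (0.663 and 3.32 CPM, 2.04, adjusted p = 0.0940) were not called. Lung replicate 2 was above replicate 1 for all SoxF genes, Erg, Fli1, Tal1 and Lyl1, as it was for Cdh5, and its 12 endothelial markers summed to 729.6 CPM against 237 CPM in replicate 1. Without lung replicate 1, Sox7 (adjusted p = 0.0663) and Sox17 (0.0690) were no longer called, and without lung replicate 2, Lyl1 was (log2 fold change 3.58, adjusted p = 0.0327).

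Between lung cells and P0 Emcn− BMECs, none of the 10 genes was called, against 2.13% of all genes called higher and 1.70% lower. All 10 fitted log2 fold changes were positive, from 0.15 for Sox17 to 2.06 for Tal1, with a median of 0.95 against 0.00 over all genes. The unadjusted p was under 0.05 for 2 of them by edgeR and for 2 by DESeq2. Fli1 was at 10.02 and 13.8 CPM in lung against 7.02 and 2.93 CPM (1.26, SE 0.39, edgeR adjusted p = 0.104), and without P0 Emcn− replicate 1 it was called (2.09, adjusted p = 0.0357). Ets1 was at 100.5 and 102.0 CPM in lung against 66.8 and 43.4 CPM (0.94, SE 0.33, adjusted p = 0.146). For both genes every lung library was above every P0 Emcn− library. For the SoxF genes the direction differed between the batches. In the batch of replicate 1, lung had less Sox17 than P0 Emcn− (CPM ratio 0.46) and in the batch of replicate 2 it had more (20.3), with ratios of 0.644 and 40.2 for Sox18 and 0.632 and 33.2 for Sox7. Erg (0.904 and 38.2) and Lyl1 (0.418 and 2.35) showed the same pair of directions, whereas Fli1 (1.43 and 4.71), Ets1 (1.51 and 2.35) and Ets2 (1.11 and 1.49) were higher in lung in both batches. Elk3 had ratios of 0.858 and 1.65 (log2 fold change 0.29, SE 0.25, adjusted p = 0.625). Tal1 was lower in lung in the batch of replicate 1 (CPM ratio 0.764). In the batch of replicate 2 it was at least 23.3-fold higher, with 0 counts in P0 Emcn− and 3 counts taken as the limit. Cdh5 was likewise lower in lung in the batch of replicate 1 (39.5 against 119.5 CPM) and higher in the batch of replicate 2 (171 against 6.35 CPM).

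MSC, sorted by an osterix (Osx) reporter rather than by Tie2, were not labelled as endothelial. Against P0 Emcn− BMECs, 1 of the 10 genes was called lower and none higher, where 11.3% of all genes were called higher and 7.45% lower. That gene was Lyl1, at 0 and 0.244 CPM in MSC replicates 1 and 2 against 1.59 and 1.41 CPM (log2 fold change -3.54, SE 1.07, edgeR adjusted p = 0.0277). The call was lost in a fit of only the compared groups (adjusted p = 0.104), without MSC replicate 1 (0.105) and without P0 Emcn− replicate 1 (0.0840). The macrophage and leukocyte markers moved in the same direction, with 11 of 12 called lower in MSC, a sum of 25.2 and 37.9 CPM, and 3 and 2 of the 12 at 0. Their part in the Lyl1 value was not tested. Fli1 was at 7.92 and 13.2 CPM in MSC with an adjusted p of 0.0480, under the threshold, but its log2 fold change of 1.11 (SE 0.39) was below 1.5. Erg was at 6.76 and 23.7 CPM in MSC against 6.17 and 0.504 CPM (2.08, SE 0.93, adjusted p = 0.107). Without P0 Emcn− replicate 1 both passed, at 4.97 for Erg (adjusted p = 0.0348) and 1.93 for Fli1 (adjusted p = 0.0111), and Lyl1 did not, so 2 genes were called. The other ETS members were not called, with log2 fold changes of -0.84 for Ets2 (SE 0.30, edgeR adjusted p = 0.0527), -0.42 for Ets1 (adjusted p = 0.338) and 0.35 for Elk3 (adjusted p = 0.2945). Nor were Sox7 (0.44), Sox17 (-1.08), Sox18 (0.20) and Tal1 (-0.77), whose adjusted p ran from 0.482 to 0.896. The median over the members was -0.11 and that over all genes 0.01.

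The SoxF genes and Erg did not keep the same proportions in MSC as in P0 Emcn+. MSC replicate 1 held 241 Erg counts but 20 Sox18, 10 Sox17, 13 Sox7 and 3 Tal1 counts. The ratio of Erg to Sox18 counts was 1.25 (95% counting interval 1.21 to 1.29) and 1.65 (1.58 to 1.71) in P0 Emcn+ replicates 1 and 2, and 12.1 (7.63 to 20.1) and 3.87 (3.31 to 4.54) in MSC. In P0 Emcn− replicate 1 it was 1.22 (1.01 to 1.48) and in lung 1.71 (1.36 to 2.17) and 2.38 (1.99 to 2.85), and both MSC intervals lay above these. In P0 Emcn− replicate 2, with 5 Erg and 2 Sox18 counts, it was 2.50 (0.409 to 26.3), an interval that covers both MSC ratios. In P0 Emcn+ and in MSC the intervals of the 2 replicates did not overlap either, so the counting error understates the spread. In replicate 2 of P1 (6.33, 1.86 to 33.4), P2 (no Sox18 count, lower limit 3.86) and P3 (16.0, 2.49 to 671) the interval also lay above those of P0 Emcn+. In the other passaged libraries it overlapped at least 1 of them, and all of these rest on few counts. In MSC replicate 1, Erg stood at 2.55% and Fli1 at 5.81% of the P0 Emcn+ mean, while Cdh5 stood at 0.139%, Sox17 at 0.172%, Sox18 at 0.300% and Sox7 at 0.249%. In MSC replicate 2 these were 8.94% for Erg, 9.70% for Fli1, 2.75% for Cdh5, 1.48% for Sox17, 3.27% for Sox18 and 3.79% for Sox7. The ratio was chosen after the values were seen, and no test of the difference was run.

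**Figure D4:**
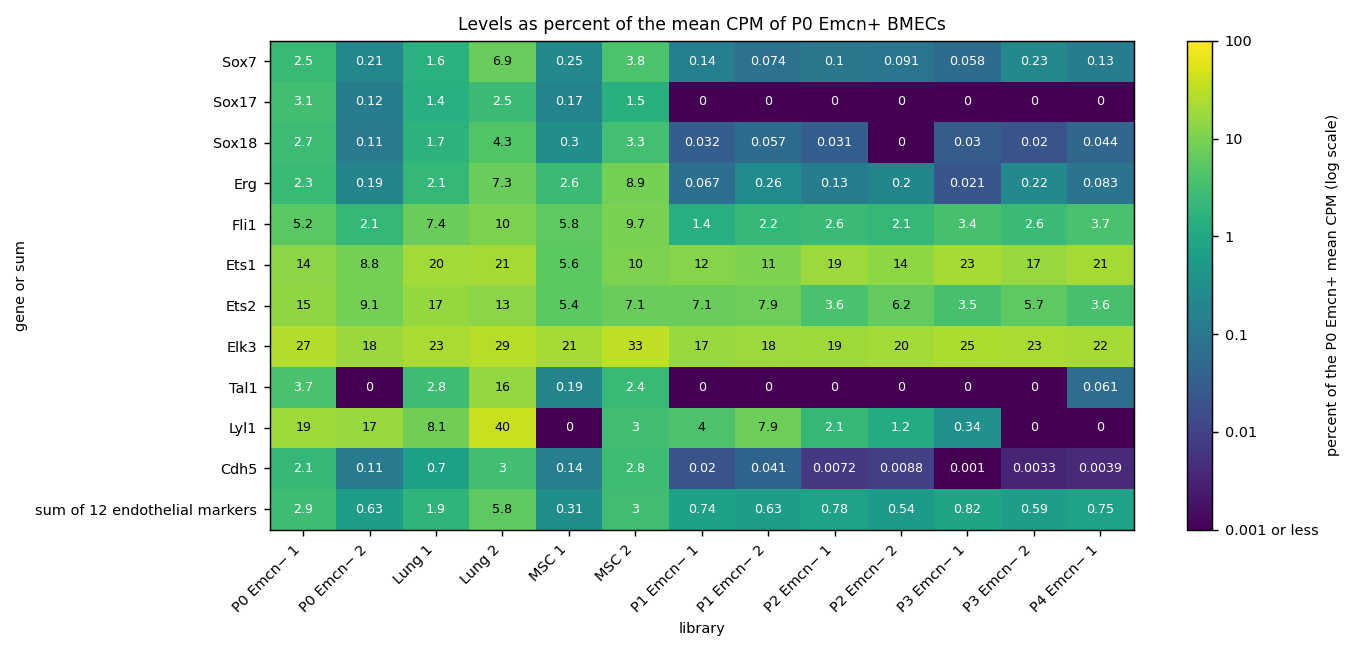
Levels in each library as percent of the mean CPM of P0 Emcn+ (number in each cell, color on a log scale), for the 10 genes, for Cdh5 and for the sum of 12 endothelial markers. Ets1, Ets2 and Elk3 stay between 3.51% and 32.6% in these 13 libraries, whereas Sox17 is at 0 in every passaged library and Cdh5 under 0.05%. Fli1 runs from 1.44% to 10.1% and overlaps the range of Ets1, Ets2 and Elk3.

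At P1, the first passage, the Emcn− BMECs held little or nothing of several of these genes. Sox17 had 0 counts in both P1 libraries and in all 7 passaged libraries, against 198 and 2 counts in P0 Emcn− replicates 1 and 2, which is at least 82.6-fold lower at P1 with both libraries of each group pooled and 3 counts over the group as the upper limit. That bound rests on P0 Emcn− replicate 1, since the 2 counts of replicate 2 are themselves under the limit and give no fold. Tal1 had 0 counts in both P1 libraries, against 66 and 0 counts, and 1 count in the 7 passaged libraries. Its pooled bound of at least 27.3-fold rests on P0 Emcn− replicate 1 alone, and against replicate 2 no fold can be given. Sox18 was at 0.0595 and 0.108 CPM at P1 (2 and 3 counts), and Sox7 at 0.208 and 0.108 CPM (7 and 3 counts). Erg was at 0.179 and 0.682 CPM (6 and 19 counts). Because P0 Emcn− replicate 2 was itself at 0.202 to 0.504 CPM for Sox17, Sox18, Sox7 and Erg, the P1 libraries overlapped it for Erg, and for the SoxF genes its 2 to 3 counts were too few to order it against P1.

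No gene of the 10 was called between P1 and P0 Emcn−, against 5.77% of all genes called higher and 3.07% lower. The unadjusted p was under 0.05 for 6 of them by edgeR and for 6 by DESeq2, which called 2, Sox17 and Sox18. The percentages of all genes refer to calls, and none was counted for the unadjusted p. The edgeR adjusted p was 0.0502 for Sox18 (log2 fold change -4.99, SE 1.54) and 0.0513 for Sox17, then 0.0934 for Erg (-3.02, SE 1.15), 0.107 for Sox7 (-3.63, SE 1.45), 0.109 for Tal1 and 0.130 for Fli1 (-0.93, SE 0.40). Without P0 Emcn− replicate 2, 3 genes were called lower at P1, namely Sox17, Sox18 and Erg. Without a filter on low counts, 4 were, with Tal1 added. Of the broadly expressed ETS genes, Ets1 and Elk3 overlapped their P0 Emcn− range, whereas Ets2 lay below both P0 Emcn− libraries. Ets1 was at 61.5 and 53.8 CPM at P1 (log2 fold change 0.22, SE 0.32, adjusted p = 0.669), Elk3 at 48.9 and 51.4 CPM (-0.17, SE 0.25, adjusted p = 0.659) and Ets2 at 31.3 and 34.6 CPM (-0.52, SE 0.30, adjusted p = 0.246). Lyl1, at 0.327 and 0.646 CPM, lay below both P0 Emcn− libraries (-1.49, SE 0.94, adjusted p = 0.285). The median over the 10 genes was -2.26 and over all genes 0.02, and it was -2.26 also with Sox17 and Tal1, which had 0 counts at P1, set to their bounds. Cdh5 was called lower at P1 (log2 fold change -5.06, adjusted p = 0.0491), but in the replicate block no gene of the endothelial marker list was.

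From P1 to P3 none of the 10 genes was called, in a comparison that called 0.0773% of all genes higher and 0.144% lower. The unadjusted p was under 0.05 for 3 by edgeR and for 3 by DESeq2. The CPM of Ets1 was 61.5 and 53.8 in the P1, 93.1 and 70.7 in the P2 and 111 and 81.8 in the P3 libraries, with 102 in P4. The P3 libraries were above the P1 libraries, within each batch by a CPM ratio of 1.81 and 1.52, but the difference was not called (log2 fold change 0.78, SE 0.32, edgeR adjusted p = 0.330). That of Ets2 was 31.3 and 34.6 in P1, 16.0 and 27.1 in P2, 15.4 and 25.1 in P3 and 15.7 in P4 (P3 over P1 -0.68, SE 0.30, adjusted p = 0.366). Within each batch the P3 over P1 ratio of Ets2 was 0.492 and 0.724. For Fli1 it was 1.96 and 2.94 in P1, 3.56 and 2.92 in P2, 4.68 and 3.52 in P3 and 5.00 in P4 (0.79, SE 0.40, adjusted p = 0.425). Elk3 stayed between 48.9 and 69.8 CPM over the passages (0.48, SE 0.25, adjusted p = 0.448). Lyl1 had 11 and 18 counts in P1, 6 and 3 in P2, 1 and 0 in P3 and none in P4 (P3 over P1 -4.58, SE 1.49, adjusted p = 0.222). The macrophage and leukocyte markers had their highest sums among the passages at P1 (85.7 and 271 CPM) and lower ones at P3 (19.5 and 15.6 CPM), with 5 of 12 called lower, and their part in the Lyl1 value was not tested. Sox7 (3 to 9 counts), Sox18 (0 to 3 counts) and Erg (2 to 19 counts) were near the detection limit in all 7 passaged libraries.

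Against P1 Emcn− BMECs, MSC had 3 of the 10 genes called higher and none lower, where 6.24% of all genes were called higher and 5.60% lower. Sox18 was at 0.561 and 6.12 CPM in MSC against 0.0595 and 0.108 CPM at P1 (log2 fold change 5.20, SE 1.53, edgeR adjusted p = 0.0330). Erg was at 6.76 and 23.7 CPM against 0.179 and 0.682 CPM (5.10, SE 1.15, adjusted p = 0.0107) and Fli1 at 7.92 and 13.2 CPM against 1.96 and 2.94 CPM (2.04, SE 0.40, adjusted p = 0.00533). No MSC library overlapped a P1 library for these genes. In the replicate block Sox18 was not called (5.39, adjusted p = 0.104), Erg (4.50, adjusted p = 0.0363) and Fli1 (2.09, adjusted p = 0.0105) were, and without P1 replicate 1 none of the 10 was called, without P1 replicate 2 only Fli1. Without MSC replicate 2, Sox18 was not called (2.69). Lyl1 was called lower there, but the MSC library left had 0 counts of it, so the size of that fold is not given. Without MSC replicate 1, Sox7 was called higher (4.97). DESeq2 called 5 genes, with Sox7 (adjusted p = 0.0123) and Sox17 (adjusted p = 0.0117) added. Ets1 (-0.63, edgeR adjusted p = 0.184), Ets2 (-0.32, adjusted p = 0.473), Elk3 (0.53, adjusted p = 0.155) and Lyl1 (-2.05, adjusted p = 0.200) were not called, and neither was Tal1, with 38 counts in MSC and none at P1. The median was 3.05 over the members (2.78 with Sox17 and Tal1 set to their bounds) and 0.00 over all genes. By list, 4 of the 16 endothelial targets were called higher, among them Cdh5 (5.49, adjusted p = 0.0303). MSC shares its batch with P1 replicate 2 only, and both MSC libraries are of 1 batch.

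Genes known as targets of ETS and SoxF factors in endothelium were taken as a list of 16, several of which are also endothelial markers. In P0 Emcn+ over P0 Emcn−, 14 of 16 were called higher and none lower, against 7.79% and 11.4% of all genes. Their median log2 fold change was 5.53. The shares of all genes for the other comparisons are given with the members above. The largest were Robo4 (6.52), a guidance receptor, Cdh5 (6.51), Pecam1 (6.48), an adhesion molecule, and Tie1 (6.15), a receptor tyrosine kinase. Those not called were Flt1 (-0.09, adjusted p = 0.982), the VEGF receptor 1 gene, with 26.0 and 48.0 CPM in the Emcn+ libraries against 70.4 and 8.88 CPM, and Vwf (0.78, adjusted p = 0.471), the von Willebrand factor gene. Against lung, 13 targets were called higher in P0 Emcn+ and 1 lower, Vwf (-4.29, adjusted p = 0.00196), which was at 21.9 and 201 CPM in lung and 4.82 and 6.72 CPM in the P0 Emcn+ libraries. Tek, the Cre driver of the reporter, had 168 and 125 CPM in P0 Emcn+, against 20.3 and 49.4 CPM in P0 Emcn− and 14.95 to 40.3 CPM in the passaged libraries, above Cdh5 in each of the latter. In the remaining comparisons 2 targets were higher and 1 lower in lung over P0 Emcn−, 2 lower in MSC over P0 Emcn− (1 in the replicate block), 3 lower in P1 over P0 Emcn− (none in the replicate block), 4 higher and 1 lower in MSC over P1 (2 in all in the replicate block) and none in P3 over P1.

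Of 16 other ETS genes tested, 1 was called higher in P0 Emcn+ over P0 Emcn− and none lower (2 in the replicate block), a share near the 7.79% of all genes called higher, with a median log2 fold change of 0.30. The gene was Etv4, a factor of the PEA3 group, at 18.6 and 27.9 CPM against 5.94 and 6.35 CPM (1.95, adjusted p = 0.00666). Spib (-2.73, adjusted p = 0.0628), Spi1 (1.53, adjusted p = 0.0792), the myeloid factor PU.1, and Etv6 (1.27, adjusted p = 0.000648) were not called, although Spib had the largest value of the list in size. Spi1 was called lower in lung over P0 Emcn− (-3.39, adjusted p = 0.0268) and in MSC over P0 Emcn−, where both MSC libraries had 0 counts and the markers of the macrophage list were low as well. Etv2, the pioneer ETS factor of embryonic vessels, had 0 counts in 14 of 15 libraries. Of the 9 other Sox genes tested, 2 rose and 3 fell in P0 Emcn+ over P0 Emcn−, where 7.79% of all genes rose and 11.4% fell. Sox13 (3.81) and Sox6 (2.04) rose, while Sox9 (-6.29), the chondrogenic factor, its partner Sox5 (-4.76), and Sox12 (-4.18) fell. Sox9 was at 0.349 and 1.24 CPM in P0 Emcn+ and at 48.2 to 173 CPM in every other library.

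The partners of Tal1 and Lyl1 were called higher in 4 of 8 tested cases in P0 Emcn+ over P0 Emcn− and lower in none. Of all genes tested, 7.79% were called higher and 11.4% lower, which also stands beside the other lists of this paragraph. These were Cbfa2t3 (3.92, adjusted p = 0.00405), a corepressor of Tal1 complexes, Lmo2 (3.59, adjusted p = 0.00697), the LIM-only bridge, Gata2 (3.15, adjusted p = 0.000339) and the E protein gene Tcf4 (1.74, adjusted p = 0.000122). Lmo2 was at 82.6 and 52.3 CPM in P0 Emcn+, against 7.50 and 3.63 CPM in P0 Emcn− and 3.15 to 7.76 CPM in the passaged libraries, in which Tal1 was at or near 0. Gata2 was called higher in lung over P0 Emcn− (2.55, adjusted p = 0.00846), at 13.6 and 38.1 CPM in lung, and in MSC over P1 (2.52, adjusted p = 0.00257). Gata1, the erythroid partner, had at most 1 count in any library, and of the 9 megakaryocyte and erythroid markers 4 were tested, with none higher and 2 lower in P0 Emcn+. Of 15 other endothelial transcription factors, 6 rose and 4 fell in P0 Emcn+ over P0 Emcn−. Bcl6b (5.93, adjusted p = 0.00382), Hhex (5.78, adjusted p = 0.000367) and the lymphatic factor Prox1 (3.32, adjusted p = 0.000164) had the largest positive values. Those that fell were Foxf1 (-2.56), Meox2 (-2.42), Foxc1 (-2.03) and Foxc2 (-1.63), so the list was mixed in direction.

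The genes most like each member were found by Pearson's r of log2(CPM + 0.5) over the 15 libraries among 14066 genes with a mean of at least 1 CPM, as a description, since the libraries share conditions and P0 Emcn+ sets much of every pattern. The nearest to Sox18 was Nos3 (r = 0.996), endothelial nitric oxide synthase, and to Sox17 Rasip1 (r = 0.996). Sox7 was nearest to Sox18 itself (r = 0.995) and then to Icam2 (r = 0.9945). For Tal1 they were Hhex (r = 0.992) and Nrarp (r = 0.991), for Erg Pde4b (r = 0.987) and Kit (r = 0.983), for Fli1 Exoc6 and Shroom4, and for Elk3 Flt4 (r = 0.9898), the VEGF receptor 3 gene. Ets1 was nearest to Slc16a13 (r = 0.985), Ets2 to Litaf (r = 0.984) and Lyl1 to Stab1 (r = 0.982), a scavenger receptor of sinusoidal endothelium and macrophages. Among the members themselves, r was highest between Sox7 and Sox18 and lowest between Erg and Ets1 (r = 0.635).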

How the data were processed

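Bulk RNA libraries of sorted cells were prepared with a KAPA RNA HyperPrep kit. Reads were trimmed by the authors and aligned to GRCm38 by STAR within the nf-core RNASeq workflow, and Salmon estimates on an Ensembl annotation were merged with tximport. The deposited counts are whole numbers per gene without normalization, for 15 libraries, and neither their rounding nor the use of strand is described in the sources used here. Conditions, replicates and batches came from the labels, the lung Emcn status from the study's results and the mouse lines from its methods. The study describes its bulk RNA-seq replicates as independent biological samples, but nothing in the labels ties libraries to single animals. The p-values measure the spread between libraries, which may in part be technical.

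Counts were scaled to CPM by library total. Genes were tested by edgeR 4.0.16 in R 4.3.3 (TMM, filterByExpr with minimum count 10 and minimum total 15, quasi-likelihood test, Benjamini-Hochberg adjustment over 19401 genes), with 1 coefficient per condition and 7 residual degrees of freedom. The script was tested on simulated counts. Between replicates, the chi-square of the counts over its degrees of freedom was 38.6 to 129.5, so no pair was 1 library deposited again. Alternatives were DESeq2 1.42.0, ashr 2.2.63, RLE factors, no filter, at least 50 counts in 2 libraries, no limit on the fold change, the compared groups alone, each library left out, and a replicate block of 2 batch terms. The labels pair same-numbered libraries by batch, and their deviations correlated by 0.139 to 0.209 within P0 and lung and by 0.354 to 0.451 within P1 to P3. The members, lists and tests were chosen with earlier results of these data known. All 10 members are named in every comparison, and of each list at most the 4 tested genes with the largest change in P0 Emcn+ over P0 Emcn−, those opposite to most of their list, and up to 3 called genes in other comparisons. Vwf, Flt1, Tek, Etv2, Gata1, Cdk17, Emcn and Cdh5 were named after their values were seen where this rule does not give them.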

Additional observations from a re-analysis of the deposited data

How the results depend on the processing

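Counts of called members kept within 1.5 times of the edgeR value in P0 Emcn+ over P0 Emcn− (9, and 8 to 9 with 1 library left out), in P0 Emcn+ over lung (8, and 6 to 9) and in P3 over P1 (0, and 0 to 0). For lung over P0 Emcn− the count was 0, and 0 to 1 with 1 library left out. For MSC over P0 Emcn− it was 1, 2 with no fold change limit, 0 in a fit of only the compared groups, and 0 to 2 with 1 library left out. For P1 over P0 Emcn− it was 0, 2 by DESeq2's Wald test and with ashr, 4 with no filter, 1 with at least 50 counts in 2 libraries, and 0 to 3 with 1 library left out. For MSC over P1 it was 3, 5 by DESeq2, with ashr and with no filter, and 0 to 4 with 1 library left out. With the replicate block the counts were 9, 0, 1, 0, 8, 2 and 0 in the order of the comparisons drawn, and among the members it changed the call of Sox18 in MSC over P1 only. It moved list counts in MSC over P0 Emcn− (1 endothelial marker, 1 other endothelial factor, 3 other Sox genes, 1 partner and 2 megakaryocyte and erythroid markers), P1 over P0 Emcn− (2 macrophage markers, 1 other Sox gene) and MSC over P1 (3 other endothelial factors, 1 endothelial marker). The cause of these changes was not tested.

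Uncalled log2 fold changes that changed sign did so with 1 library left out. In lung over P0 Emcn− they ran from -0.61 (without P0 Emcn− replicate 2, -0.31 without lung replicate 2) to 4.01 for Sox17 and from -1.10 (without lung replicate 2) to 1.18 for Lyl1. In MSC over P0 Emcn− they ran from -2.52 (without MSC replicate 2, -0.26 without P0 Emcn− replicate 2) to 3.32 for Sox7, from -2.32 and -0.57 likewise to 4.07 for Sox18, from -3.28 to 2.76 (without P0 Emcn− replicate 1) for Sox17, and from -3.43 to 0.12 (without MSC replicate 1) and 7.03 (without P0 Emcn− replicate 1) for Tal1. In P1 over P0 Emcn− they ran from -0.08 (without P0 Emcn− replicate 2) to 0.57 for Ets1 and from -0.47 to 0.17 (without P0 Emcn− replicate 1) for Elk3. In P3 over P1 they ran from -0.84 (without P3 replicate 2, -0.07 without P1 replicate 2) to 1.03 for Sox7 and from -2.73 to 0.74 (without P1 replicate 2, 0.51 without P3 replicate 1) for Erg. RLE factors shifted the median of all genes by at most 0.05. A left-out library leaves a lone one that is assumed to vary like the other groups. The lone P0 Emcn− library left without replicate 1 held 0 Tal1 counts, so the Tal1 value of 7.03 is not a measured fold. The SoxF values of 4.01, 3.32, 4.07 and 2.76 rest on 2 to 3 counts in that same library. With 9914620 counts, P0 Emcn− replicate 2 allows up to 0.303 CPM at a count of 0, so differences among SoxF genes below that level were not detectable there.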

Other observations

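Exons of 3 members overlap a gene on the opposite strand. Sox17 shares 804 bases with Gm37587, which was at 0.317 and 0.193 CPM in P0 Emcn+ and at 0 in all other libraries. Elk3 shares 316 bases with Cdk17. Lyl1 shares 4 bases with Nfix, which was at 31.7 and 60.9 CPM in P0 Emcn+ and at 419.5 to 730.4 CPM elsewhere.

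The Erg to Sox18 ratio in the passaged libraries rested on few counts. It was 3.00 (95% counting interval 0.536 to 30.4) and 6.33 (1.86 to 33.4) at P1 and 6.00 (1.34 to 55.2) at P2 replicate 1. It was 1.00 (0.0725 to 13.8) and 16.0 (2.49 to 671) at P3 and 2.67 (0.640 to 15.6) at P4. P2 replicate 2 had 16 Erg counts and no Sox18 count, with a lower limit of 3.86.

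Other factors named in the lists also differed between MSC and the BMECs. Hey2, a Notch target gene, was called higher in MSC over P0 Emcn− (log2 fold change 5.27, edgeR adjusted p = 0.00477) and over P1 (4.44, adjusted p = 0.00954), and Sox6 was called higher in both comparisons (5.22 and 3.21). Mural markers were called higher in MSC over P1 in 6 of 7 cases, against 6.24% of all genes.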
